A study of Mus musculus with 8 samples.

Results

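The genes described here are 8 genes of serotonin handling in the superior cervical ganglion of newborn mice: the serotonin transporter Slc6a4, the synthesis enzymes Tph1 and Tph2, the receptors Htr1b, Htr2b, Htr3a and Htr3b, and the breakdown enzyme Maob. They were taken by symbol from a count table of 23827 rows, and each stood on 1 row. The set was chosen because Slc6a4 was much lower in the mutant ganglia, that is, selected on the measured change of Slc6a4 between the groups compared here, so that change is given below as a description without a test. All 8 libraries came from ganglia of C57Bl6/n animals on postnatal day 1 that carried the Kif1b beta allele with loxP sites on both copies (KIF1Bb fl/fl). The 4 controls had no Cre (DBHcre -/-), and the 4 conditional knockouts (cKO) had 1 copy of Cre driven by the promoter of Dbh, the dopamine beta-hydroxylase gene (DBHcre +/-). No group carried Cre without the loxP allele, so effects of Cre and of the deletion cannot be told apart. Each library held polyadenylated RNA from the ganglion pair of 1 animal.

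Serotonin is made from tryptophan by a tryptophan hydroxylase, for which most peripheral tissues use Tph1 and neurons use Tph2, followed by the decarboxylase Ddc. Vesicular monoamine transporters load it into vesicles, Slc6a4 carries it back into the cell after release, and the monoamine oxidases Maoa and Maob break it down. Most of its receptors act through G proteins, whereas Htr3a and Htr3b encode subunits of a ligand-gated cation channel. Sympathetic neurons release noradrenaline, which they recover through Slc6a2, a close relative of Slc6a4, and serotonin is known to depolarise them through the HTR3 channel.

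The starts of Slc6a4 and Htr3b are shown because these were the members with lower values in each cKO library than in each control library. RefSeq on GRCm38.p6 gave promoter sequences for 6 of the 8 members. The 250 bases before the start are printed 5' to 3' on the strand of the gene, chr11:76998347-76998596 (plus) for Slc6a4 and chr9:48964991-48965240 (minus) for Htr3b. Capitals mark matches to the letters named after them, where CCGCCC is GGGCGG on the other strand.
Slc6a4: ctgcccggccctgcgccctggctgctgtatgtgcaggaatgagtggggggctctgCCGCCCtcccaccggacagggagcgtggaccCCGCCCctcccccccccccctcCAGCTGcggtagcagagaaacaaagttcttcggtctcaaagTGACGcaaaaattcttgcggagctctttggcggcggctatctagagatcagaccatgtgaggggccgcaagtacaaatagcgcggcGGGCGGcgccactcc
Htr3b: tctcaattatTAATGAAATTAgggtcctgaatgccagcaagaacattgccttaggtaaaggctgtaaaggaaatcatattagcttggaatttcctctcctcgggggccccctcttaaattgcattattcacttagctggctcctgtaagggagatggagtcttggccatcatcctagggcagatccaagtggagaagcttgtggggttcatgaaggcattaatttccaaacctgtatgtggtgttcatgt
The Slc6a4 window held 64.8% G and C, and the Htr3b window 44.0%, where the median of 32851 such windows was 52.4%. Letters searched on both strands were the paired-type homeodomain palindrome P3, the GATA letters AGATAA and TGATAA, the E-box CAGCTG, the cyclic AMP response element TGACGTCA and its part TGACG, the GC box GGGCGG and the TATA letters TATAAA. In the Slc6a4 window there were 3 GC boxes, 1 E-box CAGCTG and 1 TGACG. At least 1 match to these letters was found in 32.7%, 13.0% and 17.8% of all windows, and the share with 3 GC boxes was not counted. The Htr3b window held 1 match, to the P3 palindrome, which occurred in 0.463% of all windows. Neither window held AGATAA (9.99% of windows), TGATAA (7.94%), TGACGTCA (1.55%) or TATAAA (12.4%). These are matches of letters and not measured binding sites.

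Libraries held between 16214912 and 18114418 counts, so that 1 count was worth 0.0539 to 0.0627 CPM (counts scaled to a common library size by TMM, a method that also corrects for composition). Kif1b, the targeted gene, lay between 933 and 1454 CPM in control and between 191 and 302 CPM in cKO ganglia. All 8 noradrenergic marker genes were detected in each library, with a summed level of 8967 to 9490 CPM across controls and 7147 to 8076 CPM across cKO libraries. Control 1 and cKO 1 stood apart by their muscle and cartilage genes (63.0 and 155 CPM summed, against 12.4 to 19.5 in the other 6 libraries). The library cKO 4 stood apart by the sum of 11 sensory neuron genes, 203 CPM against 35.5 to 87.2 in the others. Its largest parts were P2rx3 (90.2 CPM), Scn10a (38.0), Avil (37.7) and Scn11a (17.6), and not all 11 genes were raised.

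In control ganglia the 8 members covered a wide range of levels, compared per kilobase of exon so that gene length did not enter. Htr3b was highest at 50.3 ± 9.4 CPM per kilobase (SD, n = 4), followed by Maob at 34.6 ± 2.0 (SD, n = 4) and Htr3a at 34.1 ± 12.7 (SD, n = 4). Slc6a4 had 11.7 ± 2.6 CPM per kilobase (SD, n = 4) and Tph2 0.545 ± 0.047 (SD, n = 4). Htr2b, Htr1b and Tph1 had 0.143 ± 0.117, 0.0983 ± 0.0378 and 0.0791 ± 0.0304 CPM per kilobase (SD, n = 4 each). The ranges of Maob and Htr3a overlapped, as did those of Htr2b, Htr1b and Tph1, whereas the other neighbours in this order did not overlap over the 4 controls. Slc6a2, the noradrenaline transporter, stood far above Slc6a4 at 609 ± 62 CPM per kilobase in control ganglia (SD, n = 4), and Maoa stood above Maob at 259 ± 21 (SD, n = 4). Htr2a, Htr5a and Htr1d, receptors coupled to G proteins, had 0.683 ± 0.095, 0.497 ± 0.113 and 0.361 ± 0.111 CPM per kilobase (SD, n = 4 each).

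**Figure D1:**
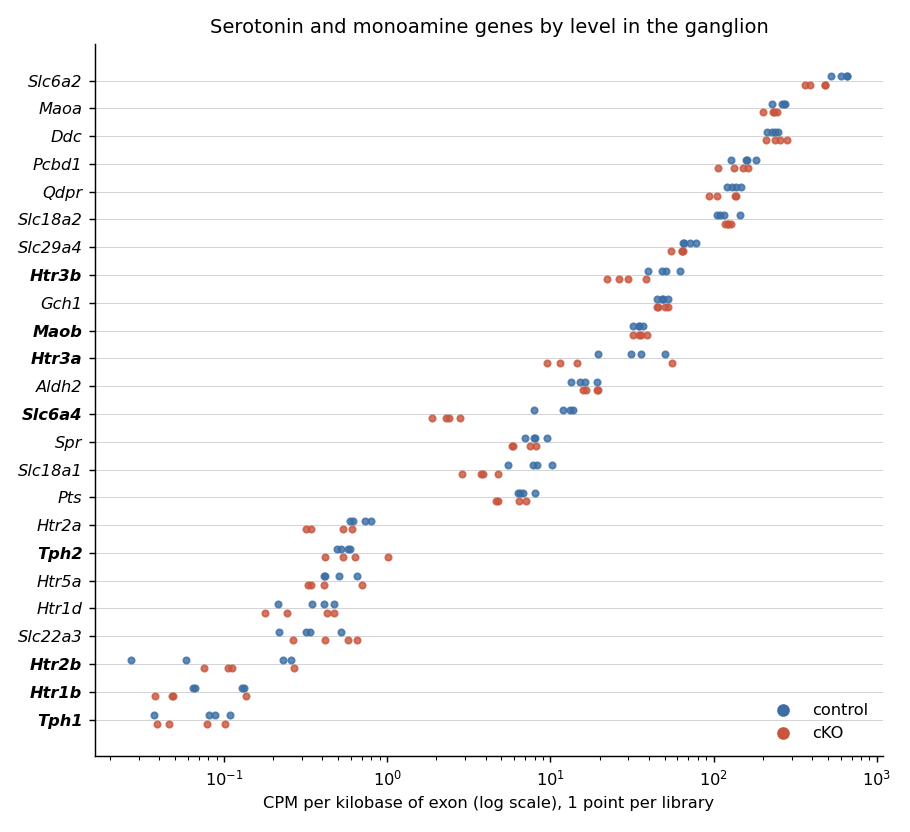
Each point is 1 library (blue control, red cKO), on a log axis of CPM per kilobase of exon, for the tested genes of the synthesis, receptor and uptake lists and the members below the count filter; members are in bold. The noradrenaline transporter Slc6a2 is at the top (609 CPM per kilobase in control ganglia) and Tph1 at the bottom (0.0791), and Slc6a4 moves from 11.7 in control to 2.34 in cKO ganglia.

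Of the 8 members, 5 had enough counts to be tested, and Tph1, Htr1b and Htr2b did not. Of the 4 tested members other than Slc6a4, Htr3b was lower in cKO ganglia at an adjusted p below 0.05 and none was higher. Among all 14592 tested genes 2.72% passed, 1.6% as higher and 1.12% as lower. These were 234 higher and 163 lower genes, and 343 and 145 with library size alone as the scaling. The DESeq2 Wald test passed 1012 of 14563 genes and limma voom 434 of 14592. How many of all genes had an unadjusted p below 0.05 was not counted.

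Slc6a4, the serotonin transporter (chromosome 11, 76998603 to 77032340, plus strand, GRCm38), had 589, 949, 1085 and 887 counts in controls 1 to 4 and 149, 174, 191 and 234 counts in cKO 1 to 4. On the scaled level this was 36.1, 59.5, 62.1 and 53.9 CPM in controls and 8.51, 10.4, 10.8 and 12.6 CPM in cKO ganglia. The lowest control library stood above the highest cKO library, and control 1 was the lowest of the controls. In bulk RNA, fewer cells that express a gene and less of its RNA per cell cannot be told apart. The level in control ganglia was 4.99 times that in cKO ganglia, a log2 fold change (cKO over control, log2 ratio below) of -2.32 (SE 0.19). With any 1 library left out the log2 ratio lay between -2.47 and -2.24. This value was the reason for the choice of the gene and is therefore given without a test. Per kilobase, Slc6a4 went from 11.7 ± 2.6 to 2.34 ± 0.37 CPM (SD, n = 4 each), and it kept the fourth place among the 8 members in both groups. An antisense gene, Gm12343, lies within Slc6a4 in the annotation and had no row of its own in the table.

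Among the other plasma membrane and vesicle transporters of monoamines, Slc18a1 was lower in cKO ganglia and the others did not pass. Slc6a2 had 4119, 4126, 3295 and 3777 CPM in controls 1 to 4 and 3032, 2280, 3017 and 2449 CPM in cKO 1 to 4. Its groups did not overlap, and its log2 ratio of -0.51 (SE 0.12) did not pass (adjusted p = 0.0545 in edgeR's quasi-likelihood test over 14592 genes). It passed with the DESeq2 Wald test (adjusted p = 0.00494) and without cKO 1 in edgeR (0.0472), at log2 ratios of -0.51 and -0.58. The counts of Slc6a4 divided by those of Slc6a2 in the same library, not corrected for length, lay between 0.00877 and 0.0189 in controls and between 0.00281 and 0.00515 in cKO ganglia. Slc18a1, a vesicular monoamine transporter typical of endocrine cells, fell from 42.8 ± 10.4 to 20.6 ± 4.2 CPM (SD, n = 4 each; log2 ratio -1.06, SE 0.20, edgeR adjusted p = 0.0227). That call was lost without control 2 (adjusted p = 0.0882), control 3 (0.0504), control 4 (0.0742) or cKO 3 (0.065), and without both libraries numbered 4 (0.132). Slc18a1 overlaps Atp6v1b2, a proton pump gene on the opposite strand with a log2 ratio of -0.42. The vesicular transporter of neurons, Slc18a2, had 620 ± 92 and 638 ± 23 CPM (SD, n = 4 each) and a log2 ratio of 0.04 (SE 0.11). The low-affinity carrier Slc29a4 had a log2 ratio of -0.18 (SE 0.10), and the dopamine transporter Slc6a3 was at 3 to 10 counts per library.

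Apart from Slc6a4, 5 uptake and storage genes were tested, of which Slc18a1 was lower and none was higher; their median log2 ratio was -0.18, where that of all tested genes was -0.00062. DESeq2 passed 2 of these 5 genes and limma voom 1. In the SLC6 family of sodium-coupled carriers, none of the 9 tested genes other than Slc6a4 passed edgeR, and 3 had an unadjusted p below 0.05. The taurine carrier Slc6a6 and the amino acid carrier Slc6a15 had log2 ratios of 0.07 (SE 0.13) and -0.52 (SE 0.14, edgeR adjusted p = 0.0809), the latter without overlap of the groups. DESeq2 passed 2 of the 9 genes and limma voom 0, and 9 further genes of the family were below the filter.

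**Figure D2:**
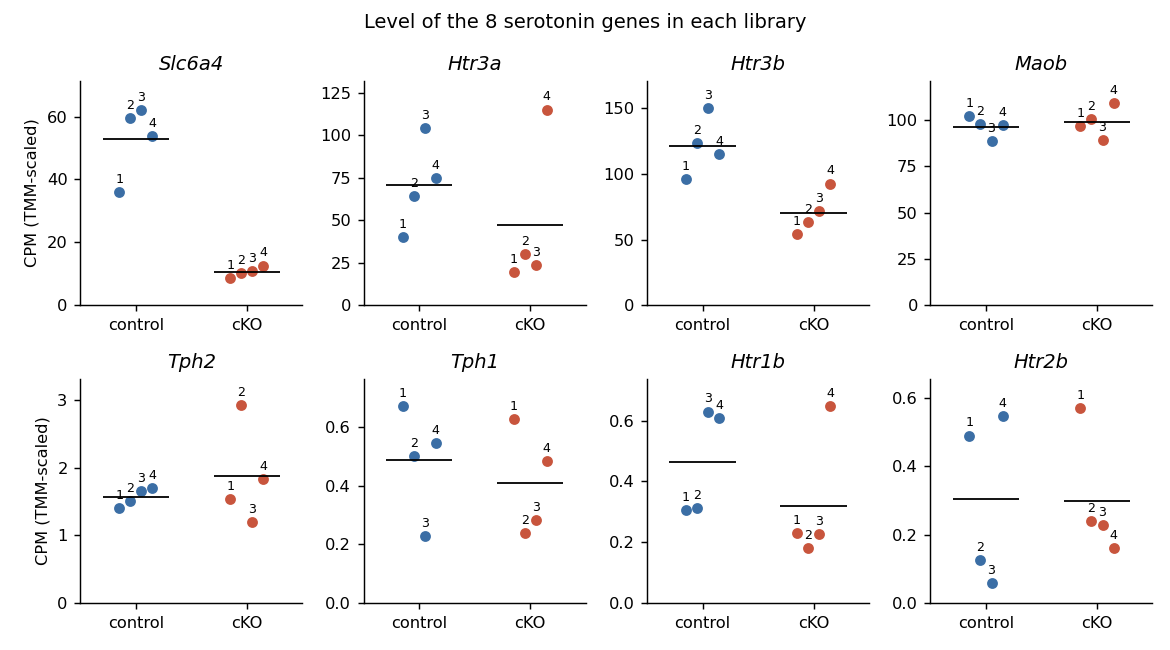
Each panel shows 1 of the 8 genes, with TMM-scaled CPM from 0 on the vertical axis, a point for each library numbered as in its label, and a black line at the group mean. Slc6a4 and Htr3b have groups that do not overlap; in Htr3a the library cKO 4 lies at 115 CPM while the other cKO libraries lie between 19.8 and 30.4 CPM.

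Both channel subunits were expressed, and Htr3b was lower in cKO ganglia. Htr3b (chromosome 9, 48935008 to 48964990, minus strand), the accessory subunit, had 1564, 1966, 2626 and 1899 counts in controls 1 to 4 and 943, 1067, 1262 and 1718 counts in cKO 1 to 4. Scaled, its level was 121 ± 23 CPM (control) against 70.5 ± 16.5 CPM (cKO; SD, n = 4 each), 1.72 times as high in control. The lowest control, at 95.9 CPM, stood close above the highest cKO library, at 92.7 CPM. Htr3b fell with a log2 ratio of -0.78 (SE 0.18) and an edgeR adjusted p of 0.0489, just under the threshold. With 1 library left out the log2 ratio lay between -0.943 and -0.666. The call was lost without control 2 (adjusted p = 0.152), control 3 (0.104), control 4 (0.127), cKO 1 (0.0749), cKO 2 (0.133) or cKO 3 (0.104), and with library size alone as the scaling (0.0612). No overlap of the groups was seen in 11.0% of all tested genes.

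Htr3a (chromosome 9, 48899213 to 48911099, minus strand), the subunit that forms the channel and lies beside Htr3b, had 660, 1029, 1819 and 1235 counts in controls 1 to 4. In cKO 1 to 4 it had 346, 509, 417 and 2137 counts. The library cKO 4, at 115 CPM, was above all controls, which lay between 40.5 and 104 CPM, while the other 3 cKO libraries, between 19.8 and 30.4 CPM, were below them all. Means were 71.1 ± 26.4 CPM (control) against 47.3 ± 45.5 CPM (cKO; SD, n = 4 each). The log2 ratio of -0.59 (SE 0.52) did not pass (edgeR adjusted p = 0.66). Without cKO 4 it was -1.53 (SE 0.29, edgeR adjusted p = 0.0296), in a fit where 2.24% of 14671 genes passed. Leaving out any other single library gave log2 ratios between -0.787 and -0.35, none of which passed. The antisense gene Gm32335 overlaps Htr3a and had no row in the table.

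The count of Htr3a divided by that of Htr3b was between 0.422 and 0.693 in controls, between 0.33 and 0.477 in cKO 1 to 3, and 1.24 in cKO 4. Several sensory neuron genes were also high in cKO 4: Scn10a, a sodium channel of sensory neurons, had 705 counts there and 35 to 49 in the other cKO libraries. P2rx3 had 1672 counts in cKO 4 and 295 to 607 in the other cKO libraries. Avil had 698 and 93 to 129 in the same order, and Pou4f1 51 and 1 to 5. By contrast, Calca had 13 and 6 to 26, Mrgprd 1 and 0 to 7, and Prrxl1 17 and 19 to 47. Control 4 had the highest sensory sum of the controls, 87.2 CPM, and Htr3a at 75.1 CPM; control 3 had the lowest sum, 35.8 CPM, and the highest Htr3a of the controls, 104 CPM. Of the 11 sensory neuron genes 9 were tested, of which none passed edgeR. In edgeR 1 of them, Prrxl1, had an unadjusted p below 0.05, and DESeq2 and limma voom passed 1 and 0. Their median log2 ratio was 0.71, and 8 of the 9 were positive. The part of sensory neurons in the level of Htr3a was not tested. Leaving out both libraries numbered 4 gave Htr3a a log2 ratio of -1.50 (SE 0.32, edgeR adjusted p = 0.0988) and Htr3b one of -0.97 (SE 0.19, edgeR adjusted p = 0.0779).

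**Figure D3:**
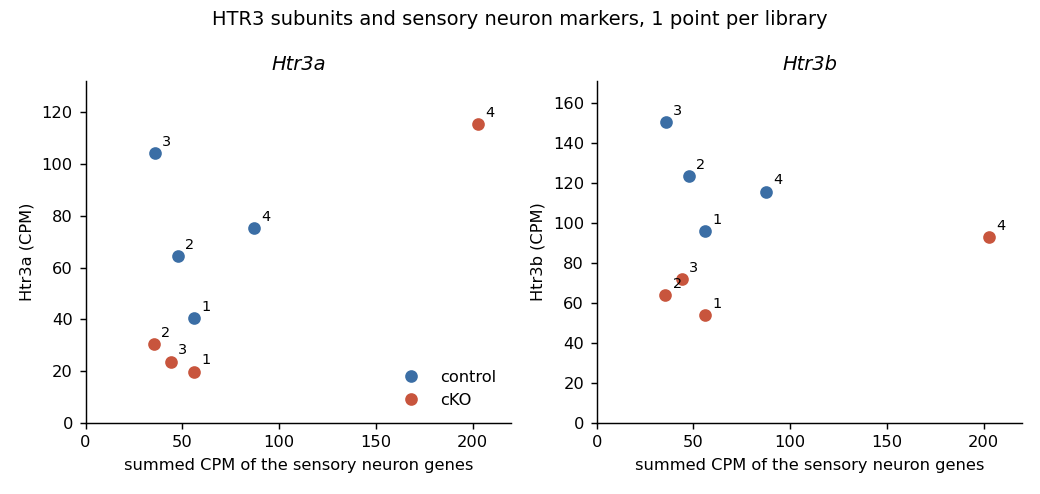
The horizontal axis is the summed CPM of 11 sensory neuron genes and the vertical axis the CPM of Htr3a (left) or Htr3b (right), with 1 numbered point per library, blue for control and red for cKO. The library cKO 4 lies alone at a sensory sum of 203 CPM, with Htr3a at 115 CPM above all controls and Htr3b at 92.7 CPM below all controls.

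The receptors that act through G proteins were at low counts. Htr1b (chromosome 9, 81628291 to 81633828, minus strand), a receptor that inhibits transmitter release in many neurons, had 5, 5, 11 and 10 counts in controls 1 to 4 and 4, 3, 4 and 12 in cKO 1 to 4. Htr2b (chromosome 1, 86099026 to 86111970, minus strand), a receptor known from smooth muscle and fibroblasts, had 8, 2, 1 and 9 counts in controls and 10, 4, 4 and 3 in cKO ganglia. Totals were 31 and 23 counts for Htr1b and 20 and 21 for Htr2b, the groups overlapped for both, and both were below the filter of the fit. Fitted without that filter, the log2 ratios were -0.52 (SE 0.49, edgeR adjusted p = 0.676) for Htr1b and -0.02 (SE 0.63, edgeR adjusted p = 0.99) for Htr2b. No change of either gene was detected, and at this depth the SEs are too wide to exclude one. Htr1b overlaps D430036J16Rik, whose own log2 ratio was -0.91, and Htr2b lies within Psmd1, both on the opposite strand. The sources used here do not say whether strand was used in counting, so reads of such pairs cannot be told apart.

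Among 14 receptor genes, 9 were below the filter and 5 were tested, of which Htr3b passed. All 5 had negative log2 ratios (median -0.59, against -0.00062 over all tested genes). That median was the value of Htr3a, which did not pass and depended on cKO 4. In the fit without the filter the median of the receptor list was -0.138, where that of all genes was 0.0033. Htr2a, at 3.83 ± 0.53 CPM (control) against 2.53 ± 0.81 CPM (cKO; SD, n = 4 each), had a log2 ratio of -0.60 (SE 0.24) and did not pass (edgeR adjusted p = 0.237). Htr5a and Htr1d had log2 ratios of -0.15 (SE 0.28) and -0.12 (SE 0.35), and neither passed. DESeq2 and limma voom each passed 1 receptor gene.

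Transcripts of the enzyme that starts serotonin synthesis were scarce. Tph2 (chromosome 10, 115078641 to 115185022, minus strand), the neuronal form, had 23, 24, 29 and 28 counts in controls 1 to 4 and 27, 49, 21 and 34 in cKO 1 to 4. The cKO range enclosed that of the controls, and cKO 2 was the highest library. The level was 1.57 ± 0.14 CPM (control) against 1.87 ± 0.75 CPM (cKO; SD, n = 4 each), with a log2 ratio of 0.25 (SE 0.28, edgeR adjusted p = 0.745). Without cKO 2 the log2 ratio was -0.0429. Tph1 (chromosome 7, 46644641 to 46672537, minus strand) had 11, 8, 4 and 9 counts in controls and 11, 4, 5 and 9 in cKO ganglia, 32 and 29 in all. It was below the filter, and without the filter its log2 ratio was -0.24 (SE 0.43, edgeR adjusted p = 0.87). Mast cells are known to make serotonin with Tph1, and Cpa3, a mast cell protease, had 312 counts in control 1, 305 in cKO 1 and 28 to 154 in the others. Control 1 and cKO 1, with 11 counts each, were the libraries with most Tph1. Control 4 and cKO 4 followed with 9 each, at 43 and 154 counts of Cpa3, and control 2 with 8, at 28. The library cKO 3 had 5 counts of Tph1 at 78 of Cpa3, and control 3 and cKO 2 had 4 each at 77 each. The part of mast cells in the Tph1 count was not tested. The 9 mast cell genes summed to 72.0 to 134 CPM across controls and 73.6 to 118 CPM across cKO libraries, of which Kit, also a marker of other cells, gave 47.2 to 95.5 CPM, and Fcer1a was at 0 in 5 libraries.

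Maob (chromosome X, 16709282 to 16817366, minus strand), the oxidase known from glia and serotonin neurons, had 1669, 1560, 1554 and 1599 counts in controls 1 to 4 and 1696, 1681, 1569 and 2023 in cKO 1 to 4. It was the least variable member, at 96.6 ± 5.5 CPM (control) against 98.9 ± 8.3 CPM (cKO; SD, n = 4 each), and the groups overlapped. The log2 ratio was 0.03 (SE 0.10, edgeR adjusted p = 0.926), and its sign changed with the library left out (-0.0172 to 0.075). Maoa, the form that prefers serotonin and noradrenaline, had 1078 ± 88 and 944 ± 78 CPM (SD, n = 4 each) and a log2 ratio of -0.19 (SE 0.10) that did not pass. The count of Maob divided by that of Maoa lay between 0.0819 and 0.108 in controls and between 0.092 and 0.116 in cKO ganglia, and these ranges overlapped.

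No gene passed edgeR among 10 tested genes of serotonin synthesis and breakdown, none had an unadjusted p below 0.05, and DESeq2 and limma voom also passed 0. Their median log2 ratio was -0.09, with 4 positive and 6 negative. Ddc, the decarboxylase shared by serotonin and noradrenaline synthesis, had a log2 ratio of 0.09 (SE 0.11). Gch1 and Qdpr, which make and recycle the cofactor of the hydroxylases, had log2 ratios of -0.01 (SE 0.09) and -0.18 (SE 0.14).

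**Figure D4:**
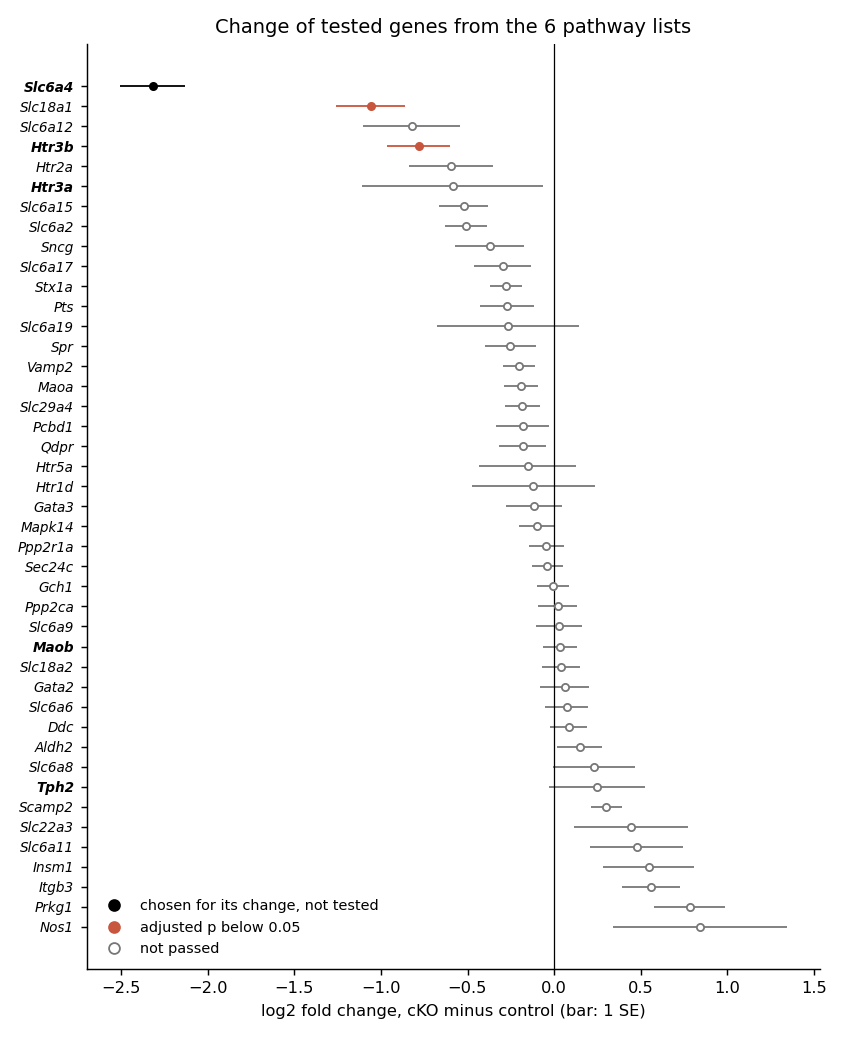
Points are log2 ratios, cKO minus control, with bars of 1 SE, for the tested genes reported here from the 6 pathway lists; members are in bold. Slc6a4, in black, was chosen for this change; Slc18a1 and Htr3b, in red, passed at an adjusted p below 0.05, and the genes in grey did not.

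Factors known from serotonin neurons of the brain were looked up next. Fev, the factor that defines those neurons, had 0 counts in 7 libraries and 1 count in cKO 4, and En2 had 0 counts in all 8, which allows up to 3 counts over the 8 libraries together. Gata2 and Gata3, which sympathetic neurons share with serotonin neurons, had log2 ratios of 0.06 (SE 0.14) and -0.12 (SE 0.16) and did not pass. This list and the next are not reported in full, so no median of either is given.

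Genes whose proteins are reported to bind or regulate the serotonin transporter had log2 ratios of both signs. Of the 11 tested genes counted here, none passed edgeR, 5 had an unadjusted p below 0.05, and DESeq2 and limma voom passed 4 and 0. Over all genes DESeq2 passed 1012 of 14563, and the share at an unadjusted p below 0.05 was not counted. The log2 ratios of 5 genes were positive and those of 6 negative. Sncg, Ppp2r1a and Vamp2, those with the highest levels, had log2 ratios of -0.37 (SE 0.20), -0.05 (SE 0.10) and -0.20 (SE 0.09). Prkg1, a cyclic GMP-dependent kinase, had a log2 ratio of 0.78 (SE 0.21, edgeR adjusted p = 0.0721), Itgb3, an integrin subunit, one of 0.56 (SE 0.17, 0.11), and Scamp2, a vesicle membrane protein, one of 0.30 (SE 0.09, 0.0996). Stx1a had a log2 ratio of -0.28 (SE 0.09, edgeR adjusted p = 0.146). The groups did not overlap for Prkg1, Scamp2 and Stx1a and overlapped for Itgb3. No overlap was seen in 11.0% of all tested genes.

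The genes with the profile most like that of Slc6a4 were found by the root mean square difference of centred log2 CPM over the 8 libraries, among 11731 other genes at a mean of at least 5 CPM. They were Dsg2, a desmosomal cadherin, at 0.324, Lrp1b, a lipoprotein receptor relative, at 0.356, Prkg2, a cyclic GMP-dependent kinase, at 0.446, Kif1b at 0.451 and Fam196b at 0.453. Dsg2 went from 16.4 ± 4.8 to 4.86 ± 1.02 CPM and Prkg2 from 44.7 ± 3.5 to 15.6 ± 1.3 CPM (SD, n = 4 each). The measure follows the difference between the groups, which also chose Slc6a4, so this list is a description. Htr3b stood at place 56 with 0.76, Htr3a at place 235 with 0.927 and Maob at place 6581 with 1.2.

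Slc6a4, Htr3a and Htr3b shared their extreme libraries within each group. All 3 were lowest in control 1 and highest in control 3 among the controls, and lowest in cKO 1 and highest in cKO 4 among the cKO libraries. The same 4 extreme libraries were found in 1017 of 14592 tested genes (6.97%), so the pattern is not particular to these genes. Slc18a1 was likewise lowest in control 1 and cKO 1 and highest in control 3, but highest in cKO 2. Control 1 and cKO 1 were the libraries with high muscle and cartilage genes, whose part in these values was not tested. Without both of them the log2 ratios were -2.37 for Slc6a4, -0.77 for Htr3b and -0.52 for Htr3a.

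Markers of several cell types moved with the groups. None of 8 noradrenergic genes passed edgeR, though 3 had an unadjusted p below 0.05 and DESeq2 passed 1 and limma voom 0 (median log2 ratio -0.12). The 4 chromaffin and glomus cell genes summed to 177 to 189 CPM across controls and 106 to 138 CPM across cKO libraries, but Olfr78 alone had 173 ± 4 and 108 ± 11 CPM (SD, n = 4 each) and carried the sum. Olfr78 fell, Cox4i2 rose, and Pnmt, the adrenaline-synthesis gene, had a log2 ratio of 0.03 (SE 0.17). Summed levels of 10 glial genes were higher in each cKO library than in each control (2064 to 2660 against 3128 to 3652 CPM). The same held for 10 vessel genes (271 to 315 against 419 to 515 CPM) and 7 fibroblast genes (2874 to 3644 against 3944 to 5997 CPM). In edgeR 2 of 10, 4 of 10 and 4 of 7 of these genes passed as higher. Log2 ratios were positive for 9 of 10 glial genes and for all vessel and fibroblast genes (medians 0.61, 0.63 and 0.67). In the same order, 7, 10 and 7 genes had an unadjusted edgeR p below 0.05. DESeq2 passed 7, 8 and 6 of them and limma voom 3, 4 and 4. Platelets carry Slc6a4 protein, and the 8 platelet and megakaryocyte genes summed to 51.8 to 75.7 CPM across controls and 57.7 to 91.6 CPM across cKO libraries, with overlap. None of 5 tested platelet genes and none of 6 tested mast cell genes passed edgeR; 1 and 0 had an unadjusted p below 0.05, and DESeq2 passed 1 and 0 and limma voom 0 of both. None of 8 macrophage and 5 tested muscle and cartilage genes passed edgeR either, with 1 and 0 at an unadjusted p below 0.05 and 0 by DESeq2 or limma voom. The part of these cell types in the levels of Slc6a4 and Htr3b was not tested.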

How the data were processed

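RNA of 8 superior cervical ganglion libraries was analysed, 4 control and 4 cKO. The authors deposited raw read counts per gene symbol, for which the submitters' processing notes name STAR and the mm10 build. Not given in the sources used here were the STAR version, the counting program, the annotation and the strand setting. All values are whole numbers, and the column totals differ.

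Columns were matched to libraries by sample title. The quasi-likelihood test of edgeR 4.0.16 (R 4.3.3) compared the groups after filterByExpr and TMM scaling, with robust dispersions and no covariate, over 14592 of 23827 rows, with Benjamini-Hochberg adjusted p below 0.05 as threshold. The SE was taken as |log2 fold change| / √F. Log2 CPM used a prior count of 2. Exon lengths and gene coordinates came from GENCODE M21 (GRCm38), and promoters from RefSeq (GRCm38.p6). The symbols Nsrp1 and Adgre1 were matched through older RefSeq synonyms. Total counts of 16214912 to 18114418 per library set the precision at low counts.

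The members, 6 pathway lists and 10 marker lists were chosen with earlier results of these data known. Some genes of the serotonin neuron factor and transporter partner lists are not reported here. Named genes were the members; in each pathway list the genes that passed and up to 3 of the highest CPM; the 5 nearest profiles to Slc6a4; protein-coding genes starting within 200 kb of Slc6a4; Kif1b; and markers that moved with a member. Qdpr, Prkg1, Itgb3, Scamp2, Stx1a, Prrxl1, Slc6a3, Htr1a, Htr1d, Htr5a, the receptors below the filter, Fev, En2 and genes that overlap others were named after their values were seen.

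Alternatives were DESeq2 1.42.0 size factors, library size alone, 2 other filters, the DESeq2 Wald test, limma voom (limma 3.58.1), a block for the label number, each library left out, and both libraries numbered 1 or 4 left out. The fit was tested on simulated counts. Replicates differed by more than sampling noise (chi-square per gene from 8.0 to 58.6), and the ganglia came from separate animals. Figures used matplotlib 3.10.9.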

Additional observations from a re-analysis of the deposited data

Results flagged for a closer look

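In each group of 4 libraries, the gap of the most distant library to its nearest neighbour was divided by the range, for the 8 members and 10 marker sums. Of 36 groups checked, 6 lay above Dixon's critical value for 4 libraries, where chance gives about 1 in 20. Htr3a in cKO ganglia had a ratio of 0.889, from cKO 4 at 115 CPM. Htr1b in cKO ganglia had 0.894, again from cKO 4, with 12 counts against 3 or 4 in the others, a difference of few reads. The sensory neuron sum in cKO ganglia had 0.877, from cKO 4 at 203 CPM. The mast cell sum in controls had 0.934, from control 1 at 134 CPM. The muscle and cartilage sum had 0.859 in controls, from control 1 at 63.0 CPM, and 0.957 in cKO ganglia, from cKO 1 at 155 CPM.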

How the results depend on the processing

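The log2 fold change of Slc6a4 lay between -2.47 and -2.24 with 1 library left out. The count of changed genes over the whole table, 397, was 1012 with the DESeq2 Wald test, 74 to 514 with 1 library left out (79, 249 and 74 on dropping control 2, 3 or 4, and 147 or 137 on dropping cKO 2 or 3) and 65 without both libraries numbered 4. Htr3b lost its call with library size alone (-0.737), without both libraries numbered 4 (-0.966) and without 6 of the single libraries (range -0.943 to -0.666 over all 8). Htr3a had -1.53 without cKO 4, where it passed, and -0.35 at the other end of that range; limma voom gave -0.903, which did not pass. Signs of values that never passed changed for Tph2 without cKO 2 (-0.0429, highest 0.409) and for Maob without control 3 (-0.00642), without cKO 4 (-0.0172) and without both libraries numbered 4 (-0.0141, highest 0.075 without cKO 3). Changed genes in the receptor list numbered 1, and 0 with library size alone or without both libraries numbered 4, and 0 to 2 with 1 library left out. With Slc6a4 counted, the uptake and storage list had 2, and 3 with DESeq2. It had 1 without both libraries numbered 4 and 1 to 3 with 1 library left out. The SLC6 family, again with Slc6a4, had 1, but 3 with DESeq2. It had 2 without both libraries numbered 1 and 1 to 2 with 1 library left out. Slc6a4, chosen for its change, was 1 of the genes in each of these counts. Without it the main fit passed 1 uptake and storage gene and 0 SLC6 genes. The 11 tested transporter partners counted here had 0 with edgeR, but 4 with DESeq2 and 0 to 1 with 1 library left out. Control levels per kilobase moved by less than 1 SD under library size alone. Leaving out a single control cannot move such a mean by 1 SD, so those values say nothing about stability. In all, 207 of 250 alternative values kept their direction and side of the threshold, or lay within the limit set for counts and levels. That tally is no measure of stability. It includes the levels with a control left out, which could not fail, and Slc6a4, which was chosen for its change. Some genes also entered it through more than 1 list. The causes of the changes were not tested, but leaving out libraries lowers the number of samples.

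With the label number as a replicate block, 687 genes changed, Htr3b had -0.792 and Htr3a -0.903, the latter not passing. The SLC6 family had 2 changed genes, 1 of them Slc6a4, and these transporter partners 2. The numbers were not taken as pairs: deviations of libraries 1 to 4 from their group means correlated between groups at 0.725, 0.352, -0.302 and 0.265, across genes, so not every library went with its own number.

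The fold changes of Tph1 and Htr2b came from the fit without filter alone, and that of Htr1b, -0.518 there, lay between -0.672 and -0.327 in the settings that kept it. Depth limits Tph1, Htr1b and Htr2b most, with 20 to 32 counts over the 4 controls, too few for the count filter.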

Other observations

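The protein-coding genes that start within 200 kb of Slc6a4 did not pass in edgeR. Blmh, a peptidase that lies just before Slc6a4 on the same strand, had 175 ± 11 and 181 ± 19 CPM (SD, n = 4 each) and a log2 ratio, cKO over control, of 0.05 (SE 0.10, edgeR adjusted p = 0.902). Nsrp1, a splicing regulator that follows Slc6a4 on the other strand, had a log2 ratio of 0.09 (SE 0.11, edgeR adjusted p = 0.796). Cpd, a carboxypeptidase, had 0.08 (SE 0.14), Efcab5 had -0.36 (SE 0.35), and Tmigd1 was at 2 to 13 counts per library.

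The other receptor genes below the filter had few counts, with the larger total in either group. Htr7 had 6, 2, 4 and 7 counts in controls 1 to 4 and 6, 6, 2 and 24 in cKO 1 to 4, so that cKO 4 again held the highest value. Htr1a had 0, 1, 0 and 0 counts in controls and 1, 2, 3 and 5 in cKO ganglia. Htr6 had 9, 2, 5 and 4 counts in controls and 4, 1, 1 and 1 in cKO ganglia. Totals over the controls and over the cKO libraries were 10 and 18 for Htr4, 5 and 8 for Htr1f, 7 and 8 for Htr2c and 6 and 3 for Htr5b. These counts are too low for a test here.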
